A study of Mus musculus with 18 samples.

Results

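The genes described here encode the proteins of the mitochondrial ribosome, taken as every gene whose array name is Mrpl or Mrps followed by a number. They number 75 of the 19222 genes tested, 46 of the large subunit (Mrpl) and 29 of the small subunit (Mrps). All 75 passed the filter on dim probes, which asked for a group in which all 3 arrays read the probe well above background. The names are those of the array's design: Mrpl42, Mrpl57 and Mrpl58 carry other names there and are not counted.

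RNA came from male young adult C57BL/6 mice with no treatment named, from interscapular brown, inguinal and epididymal adipose tissue. Each depot was digested with collagenase and spun, which parted the floating adipocytes from the pelleted stromal-vascular fraction (SVF). The SVF holds progenitors, vascular cells and immune cells, and its red cells were lysed. Each of the 6 groups has 3 arrays, which the series' description calls biological triplicates. The labels do not say whether animals were pooled or whether the depots of one replicate number came from one animal.

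Mitochondrial ribosomes stand in the matrix and translate the few messages of mitochondrial DNA, all of which encode subunits of the respiratory chain and ATP synthase. Their RNA comes from mitochondrial DNA, whereas every protein is encoded in the nucleus, made in the cytosol and imported. Some proteins have bacterial counterparts, and others exist only in mitochondria. Brown adipocytes are rich in mitochondria, which they use to make heat through uncoupling protein 1, while white adipocytes store fat and hold fewer.

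The 300-base promoter windows of 6 of these genes are shown first because they cover the arrangements that the results return to. Mrpl34, Mrpl39 and Mrpl17 stand for the fraction and depot differences, and Mrpl43, Mrps12 and Mrps11 have a start shared with a neighbour on the other strand. The windows run from 250 bases before to 50 bases after the RefSeq start and are written 5′ to 3′ on the gene's strand, build GRCm38.p6. Capitals mark matches on either strand to 4 motif strings: the NRF1 core GCATGCGC, the longer NRF1 palindrome that has GC in front of this core and so contains it, the ETS string CCGGAAG and the YY1 string AAGATGGC.
Mrpl34, chr8:71464676-71464975, plus strand: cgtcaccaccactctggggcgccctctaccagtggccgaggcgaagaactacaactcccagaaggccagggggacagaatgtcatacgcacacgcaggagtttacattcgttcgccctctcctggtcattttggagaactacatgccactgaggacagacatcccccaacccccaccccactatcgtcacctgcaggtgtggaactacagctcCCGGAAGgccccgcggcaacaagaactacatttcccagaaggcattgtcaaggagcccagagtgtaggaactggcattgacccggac
Mrpl39, chr16:84735195-84735494, minus strand: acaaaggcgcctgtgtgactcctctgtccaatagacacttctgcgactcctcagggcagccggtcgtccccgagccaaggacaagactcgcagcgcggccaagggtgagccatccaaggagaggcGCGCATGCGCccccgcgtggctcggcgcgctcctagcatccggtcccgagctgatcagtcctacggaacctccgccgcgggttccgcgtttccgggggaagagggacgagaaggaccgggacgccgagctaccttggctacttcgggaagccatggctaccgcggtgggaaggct
Mrpl17, chr7:105811038-105811337, minus strand: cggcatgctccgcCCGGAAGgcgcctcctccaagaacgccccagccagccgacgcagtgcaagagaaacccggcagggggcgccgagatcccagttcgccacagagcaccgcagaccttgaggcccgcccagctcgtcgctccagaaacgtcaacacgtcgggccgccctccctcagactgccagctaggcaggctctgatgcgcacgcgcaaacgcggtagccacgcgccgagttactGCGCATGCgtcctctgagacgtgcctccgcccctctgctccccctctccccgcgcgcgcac
Mrpl43, chr19:45006393-45006692, minus strand: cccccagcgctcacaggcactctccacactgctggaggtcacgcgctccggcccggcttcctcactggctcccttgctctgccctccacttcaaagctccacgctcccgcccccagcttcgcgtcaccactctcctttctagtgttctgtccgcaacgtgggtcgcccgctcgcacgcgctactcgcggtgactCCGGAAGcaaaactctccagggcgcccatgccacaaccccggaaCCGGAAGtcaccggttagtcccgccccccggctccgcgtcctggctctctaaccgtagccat
Mrps12, chr7:28741772-28742071, minus strand: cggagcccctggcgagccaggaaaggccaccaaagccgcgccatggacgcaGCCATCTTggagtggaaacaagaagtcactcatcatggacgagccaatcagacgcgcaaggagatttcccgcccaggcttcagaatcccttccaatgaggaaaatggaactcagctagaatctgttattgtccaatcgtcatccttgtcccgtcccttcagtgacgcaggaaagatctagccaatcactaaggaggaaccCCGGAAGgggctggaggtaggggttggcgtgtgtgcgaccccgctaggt
Mrps11, chr7:78782881-78783180, plus strand: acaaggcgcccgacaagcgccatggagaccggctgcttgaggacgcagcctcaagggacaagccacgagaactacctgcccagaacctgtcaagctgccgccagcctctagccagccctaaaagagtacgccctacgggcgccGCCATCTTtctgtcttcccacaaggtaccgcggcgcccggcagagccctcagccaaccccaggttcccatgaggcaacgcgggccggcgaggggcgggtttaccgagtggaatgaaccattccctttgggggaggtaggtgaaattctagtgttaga

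A window was on hand for 66 of the 75 genes, and Mrpl4, Mrpl13, Mrpl15, Mrpl19, Mrpl38, Mrpl54, Mrps28, Mrps34 and Mrps35 had none. The ETS string, the core of the sites that GA-binding protein and its relatives bind, was in the windows of 24 of the 66 genes (36.4%), against 9.93% of 27025 genes. The YY1 string was in 11 of them (16.7%, against 3.19% of all genes). NRF1 is a nuclear factor whose targets include many mitochondrial genes. Its palindrome was in 3 windows (4.55%, against 1.07%) and its core in 8 (12.1%, against 3.05%). The string TCAAGGTCA of the oestrogen-related receptors was in none (0.466% of all genes), and the CCAAT string of NFY was in 26 (39.4%, against 41.1%). Guanine and cytosine made up a median of 58.5% of the members' windows and 52.7% of all windows, and GC-rich strings turn up more often in GC-rich windows. A match is only a run of letters in the window, and binding was not measured.

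All levels below are log2 processed signal minus the log2 of the array's 75th percentile, so 0 is the 75th percentile and 1 unit is a doubling. No member was saturated on any array, and every member was well above background on every array, apart from Mrps25 on 1 inguinal SVF array whose spot was left out as an outlier. Each gene is read by its brightest kept probe, so levels of different genes are not compared. Differences were tested with limma over all 19222 genes with Benjamini-Hochberg adjustment at 0.05, and a gene is said to have risen or to be higher only where it passed. In RNA from mixed cells, fewer cells of a type and less RNA per cell cannot be told apart.

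The adipocyte fractions carried mature adipocyte markers, while macrophage markers did not part the fractions of the white depots. All 8 mature adipocyte markers were well above background on every adipocyte array, and their summed level was 10.1 to 11.4 in adipocytes and 4.98 to 9.90 in SVF. The highest SVF value, 9.90, belongs to brown SVF replicate 2, against 6.89 and 7.02 in the other brown SVF arrays. Markers of brown adipocytes summed to 9.85 to 10.7 in brown adipocytes, 7.59 to 8.52 in inguinal and 3.42 to 7.21 in epididymal adipocytes, of which replicate 3 had the 7.21 and the other two 3.83 and 3.42. Macrophage markers summed to 2.79 to 5.58 in brown, 5.12 to 7.99 in inguinal and 6.21 to 7.52 in epididymal adipocytes. Progenitor markers summed to 5.85 to 6.45, 6.97 to 9.01 and 7.78 to 8.39 in the same order. In SVF, macrophage markers summed to 6.61 to 7.04, 6.59 to 7.49 and 7.20 to 7.93, which overlaps the adipocytes in both white depots. Progenitor markers in SVF summed to 9.10 to 9.14, 8.72 to 9.84 and 9.05 to 9.44, which overlaps in inguinal fat alone. Lymphocyte markers overlapped in inguinal fat, at 0.07 to 4.11 in adipocytes and 0.99 to 6.25 in SVF. They overlapped in epididymal fat too, at 0.67 to 1.98 in adipocytes and 1.88 to 2.51 in SVF. The part of these cells in the differences was not tested. Inguinal SVF replicate 1 stood apart in its mesothelial markers, at 6.83 where the other two arrays were at -4.71 and -3.95. Replicate 3 of this group had the most lymphocyte marker signal, 6.25 against 0.99 and 3.37. Replicate 2 had the most skeletal muscle marker signal, 4.67 against 0.07 and 0.12. Inguinal and epididymal adipocyte arrays were read with an older version of the extraction software than all others. Their slides and scan days held no SVF or brown adipocyte array, and all except inguinal replicate 3 had another scanner model. For the inguinal and epididymal fraction comparisons, brown against white adipocytes and the interactions with brown fat, these and group cannot be told apart. In the inguinal minus epididymal interaction both adipocyte groups have the older version and both SVF groups the newer.

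The members stood highest in brown adipocytes. The median over the 75 genes was 3.22, 2.66 and 3.63 on the brown adipocyte arrays and 1.60, 2.01 and 1.70 on the brown SVF arrays. In inguinal fat it was 2.17, 2.16 and 2.93 in adipocytes and 1.48, 1.58 and 1.77 in SVF. In epididymal fat it was 2.21, 2.08 and 2.05 in adipocytes and 1.48, 1.59 and 1.72 in SVF. Within each depot the adipocyte arrays lay above the SVF arrays without overlap. Among adipocytes the brown and inguinal arrays overlapped, since inguinal replicate 3 at 2.93 passed brown replicate 2 at 2.66, and the inguinal and epididymal arrays overlapped too. The 3 SVF groups overlapped throughout, and brown SVF replicate 2, the SVF array with the most adipocyte marker signal, had the highest member median among them. Inguinal adipocyte replicate 3 likewise had the highest brown marker sum of its group (8.52) and the highest member median. It also had the group's highest mature adipocyte sum (11.4, against 10.9 and 10.1) and its lowest macrophage (5.12, against 7.99 and 7.43), progenitor (6.97, against 9.01 and 8.49) and lymphocyte sums (0.07, against 4.11 and 4.07). The part of these cells in the inguinal values was not tested. Epididymal adipocyte replicate 3 had the highest brown marker sum of its group (7.21, against 3.83 and 3.42). Its member median was the lowest of the group (2.05, against 2.21 and 2.08), so the 2 did not go together there.

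**Figure D1:**
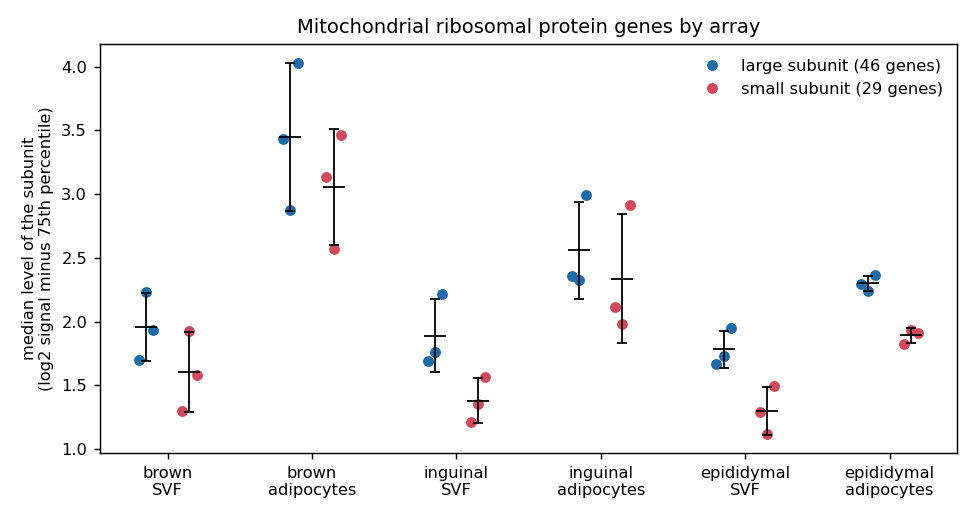
Median level of the large-subunit and small-subunit genes on each of the 18 arrays (points, log2 signal relative to the array's 75th percentile), with the mean and SD of the 3 arrays of each group as black bars. In both subunits the 3 brown adipocyte arrays sit above every SVF array, and inguinal adipocyte replicate 3, at 2.99 for the large and 2.92 for the small subunit, lies within the brown adipocyte range.

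Both subunits followed this order. Large-subunit medians were 3.43, 2.88 and 4.03 in brown adipocytes and 1.70, 2.23 and 1.94 in brown SVF, and small-subunit medians were 3.13, 2.57 and 3.46 against 1.30, 1.93 and 1.58. Over the 18 arrays the medians of the subunits correlated at Pearson r = 0.980, where the arrays share their 6 groups. Between single genes the median r over 2775 pairs was 0.839, with 2774 pairs above 0 and a range of -0.004 to 0.987.

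In brown fat all 75 members were higher in adipocytes than in SVF. All 46 large-subunit and all 29 small-subunit genes passed the test, where 21.1% of all genes passed in either direction and 12.7% were higher. Differences ran from 0.73 to 3.05, with a median of 1.34 in the large and 1.41 in the small subunit, against 0.15 over all genes. With Mrps30 and Mrps18a, which structures place in the large subunit despite their names, counted there, the medians were 1.36 and 1.37. For all 75 genes every adipocyte array lay above every SVF array, as for 30% of all genes. Macrophage and progenitor markers were lower in brown adipocytes than in brown SVF (2.79 to 5.58 against 6.61 to 7.04, and 5.85 to 6.45 against 9.10 to 9.14), and their part was not tested. On the slide that holds 2 arrays of each fraction the median member difference was 1.13, on the slide with 1 of each it was 1.86, and all 75 differences were positive on both. Without brown adipocyte replicate 3, 51 of 75 passed. The count was 41 with normexp background correction and 25 within the scan day that holds 8 arrays. No member was lower in any of these. The shares of all genes called under these and the later alternatives are not given here.

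Mrpl34, a small basic protein of the large subunit with a bacterial counterpart (probe at mm8 chr8:74394616-74394675, plus strand), had the largest difference. Its levels were 4.19, 3.73 and 5.21 in brown adipocytes and 1.84, 2.26 and -0.11 in brown SVF. The fractions did not overlap, and SVF replicate 3 was far below the other two. The difference was 3.05 (8.28-fold, SE 0.54, n = 3 and 3, limma adjusted p = 0.00113). Without brown SVF replicate 3 it was 2.33, or 5.03-fold (limma adjusted p = 0.004628), and within the scan day that holds 8 arrays 1.91. In the white depots the fractions of Mrpl34 overlapped and differed by 0.48 (limma adjusted p = 0.5843) in inguinal and 0.38 (limma adjusted p = 0.6451) in epididymal fat.

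Mrpl38, a mitochondria-specific protein of the central protuberance, was at 2.52, 2.03 and 3.26 in brown adipocytes and 0.10, 1.20 and 0.61 in brown SVF. The difference was 1.97 (SE 0.37, limma adjusted p = 0.001751), and 1.38 when the gene's kept probes were averaged. Mrpl12, the counterpart of the bacterial stalk protein that recruits translation factors, was at 4.81, 4.33 and 5.12 against 2.41, 3.19 and 2.97. It rose 3.71-fold (1.89, SE 0.33, limma adjusted p = 0.001118). Mrpl39, a mitochondria-specific protein whose NRF1 palindrome is shown above, was at 3.89, 3.39 and 4.26 against 1.81, 2.35 and 1.75, a difference of 1.87 (SE 0.29, limma adjusted p = 0.0004876). In these 3 genes, too, every adipocyte array lay above every SVF array.

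Among the genes named for the small subunit Mrps36 differed most. The protein it encodes has since been assigned to the 2-oxoglutarate dehydrogenase complex of the citric acid cycle, so its place among ribosomal proteins rests on its name. It was at 3.67, 3.21 and 4.59 in brown adipocytes and 1.16, 1.52 and 1.60 in brown SVF. The groups lay far apart, and the difference was 2.40 (5.26-fold, SE 0.32, limma adjusted p = 0.0002713). Mrps15, counterpart of a bacterial protein that binds the small-subunit RNA, was at 3.62, 3.30 and 4.14 against 1.34, 2.26 and 1.39, a difference of 2.02 (SE 0.32, limma adjusted p = 0.0005424). The mean of its kept probes gave 1.01, still past the threshold (limma adjusted p = 0.01658). Mrps35, which is specific to mitochondria, was at 2.68, 2.24 and 2.98 against 0.29, 1.21 and 0.46, and differed by 1.98 (SE 0.29, limma adjusted p = 0.000376).

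Mrps18a, Mrps18b and Mrps18c are 3 paralogs of a single bacterial protein. Mrps18b was at -0.60, -1.06 and -0.61 in brown adipocytes and at -2.90, -1.67 and -3.03 in brown SVF, a difference of 1.77 (SE 0.43, limma adjusted p = 0.008454). Mrps18a rose by 1.48 (SE 0.34, limma adjusted p = 0.005759) and Mrps18c by 1.17 (SE 0.24, limma adjusted p = 0.002981). In all 3 the brown fractions were apart. Between brown and white adipocytes Mrps18c passed against both depots (1.05 against inguinal and 0.94 against epididymal), Mrps18a only against epididymal (1.38, limma adjusted p = 0.008445), and Mrps18b, at 1.19 and 1.11, against neither.

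The smallest brown difference was that of Mrpl52, a mitochondria-specific large-subunit protein, at 3.97, 3.47 and 4.36 in adipocytes and 3.13, 3.20 and 3.28 in SVF. It rose by 0.73 (SE 0.24, limma adjusted p = 0.04266). In inguinal fat Mrpl52 differed by -0.05 (limma adjusted p = 0.9106), with SVF at 3.82, 3.59 and 3.90 and adipocytes at 3.74, 3.84 and 3.58, which overlap.

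**Figure D2:**
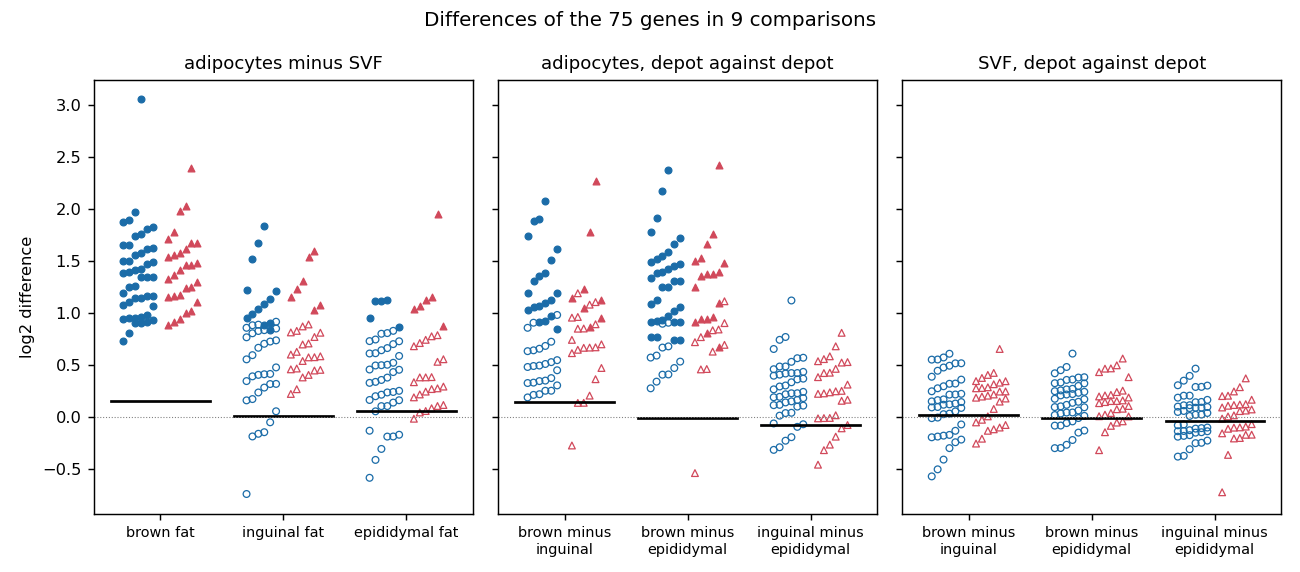
Difference in log2 level of each of the 75 members (blue circles, large subunit; red triangles, small subunit) in 9 comparisons, filled where the gene passed the limma threshold, with the median of all genes as a black line. Between fractions all 75 points are filled in brown fat, 20 in inguinal and 11 in epididymal fat, and no point is filled in the SVF comparisons.

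In inguinal fat 20 of the 75 genes were higher in adipocytes, 13 of the large and 7 of the small subunit, and none was lower. Over all genes 13.9% passed in either direction and 9.07% were higher. The median difference was 0.71 (range -0.74 to 1.84), against 0.007 over all genes, and 70 of 75 differences were positive. For 39 members every adipocyte array lay above every SVF array, against 16.5% of all genes. The count rests on single arrays: it was 5 without inguinal adipocyte replicate 3, 11 without SVF replicate 1 and 12 without SVF replicate 2. It was also 1 with normexp background correction and 0 in a fit of these 6 arrays alone.

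Mrpl38 had the largest inguinal difference, at 2.39, 1.88 and 2.99 in adipocytes and 0.42, 0.20 and 1.13 in SVF. The fractions were apart, with a difference of 1.84 (3.57-fold, SE 0.37, limma adjusted p = 0.005447). Mrpl17, whose protein lies near the exit of the tunnel for the growing chain, was at 2.32, 2.22 and 3.51 against 0.85, 1.09 and 1.09. It rose by 1.67 (SE 0.35, limma adjusted p = 0.006502), but by 0.84 (limma adjusted p = 0.1307) when its kept probes were averaged. Mrpl15 rose by 1.52 (limma adjusted p = 0.01354) and Mrpl51 by 1.22 (limma adjusted p = 0.01516).

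In the small subunit Mrps6, counterpart of a bacterial protein that pairs with S18, was at 4.37, 4.17 and 4.59 in inguinal adipocytes and 2.95, 2.36 and 3.05 in inguinal SVF. These groups did not overlap, and the difference was 1.59 (SE 0.32, limma adjusted p = 0.005473). Mrps7, which binds the head of the small subunit, was at 2.21, 2.13 and 3.26 against 0.67, 1.04 and 1.29 and rose by 1.53 (SE 0.31, limma adjusted p = 0.005494). Mrps15 rose by 1.30 and Mrps34 by 1.23 (limma adjusted p = 0.01519 and 0.03002), though the mean of the kept probes of Mrps15 gave 0.27 (limma adjusted p = 0.5383).

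In epididymal fat 11 genes were higher in adipocytes, 5 of the large and 6 of the small subunit, and none was lower. That is 14.7% of the members, below the 18% of all genes that were higher and the 25% that passed in either direction. The median difference was 0.38 (range -0.58 to 1.95), against 0.06 over all genes. With no filter on dim probes the median over all 27597 genes was 0.49, above that of the members, and 34 of 75 members lay above it. Groups were apart with adipocytes higher for 40 members, where 26.4% of all genes were. This comparison depends on the scaling and on single arrays. Dividing by the array median in place of the 75th percentile moved the member median to -0.11 and that of all genes to -0.43, with 1 member higher and 2 lower (Mrpl3 and Mrpl43), while quantile normalization gave 17 higher and 1 lower. Left without single arrays the count was 3 (SVF replicate 1), 1 (SVF replicate 2), 1 (adipocyte replicate 1), 7 (adipocyte replicate 2) and 5 (adipocyte replicate 3).

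Mrps6 had the largest epididymal difference. It was at 4.62, 4.57 and 4.73 in adipocytes and 2.51, 2.34 and 3.24 in SVF, with no overlap, and rose 3.86-fold (1.95, SE 0.32, limma adjusted p = 0.001593). It passed under every one of the 19 alternatives tried for it. Mrpl51, a mitochondria-specific protein, was at 4.55, 4.38 and 3.85 against 2.96, 3.08 and 3.38 and rose by 1.12 (SE 0.30, limma adjusted p = 0.01379). Mrpl17 and Mrpl38 both rose by 1.11 (limma adjusted p = 0.03018 and 0.03903) and passed under 9 and 8 of 19 alternatives. Mrpl11, of the stalk base, rose by 0.95, and in the small subunit Mrps34 rose by 1.15, Mrps15 by 1.12 and Mrps10 by 1.07. The members that were higher in adipocytes of all 3 depots were 7: Mrpl17, Mrpl38, Mrpl51, Mrps6, Mrps10, Mrps15 and Mrps34. The share of all genes higher in all 3 was not counted, so the 7 have no reference.

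The brown fraction difference was above the inguinal one for 68 of 75 members and above the epididymal one for 74. The same shares over all genes were not counted. Tested as an interaction, 3 members passed against epididymal fat, all with the larger difference in brown fat, where 2.02% of all genes passed in either direction and 0.536% in this one. Another 72 did not, while 36 had an unadjusted p under 0.05. Against inguinal fat limma called 0 members (0.858% of all genes), with 22 at an unadjusted p under 0.05. Between inguinal and epididymal fat it called 0 (0.078% of all genes), with 1 at an unadjusted p under 0.05. Counts under the other settings ran up to 2 against inguinal fat and from 0 to 30 against epididymal fat. The shares of all genes under those settings, and at an unadjusted p under 0.05, are not given here. The 36, 22 and 1 thus have no reference.

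The 3 were Mrps36, Mrpl47 and Mrpl3. Mrps36 was at 1.56, 1.09 and 1.57 in epididymal adipocytes and 1.12, 1.00 and 1.52 in epididymal SVF, groups that overlap, and its brown difference exceeded the epididymal one by 2.21 (SE 0.46, limma adjusted p = 0.02296). Mrpl47, counterpart of a bacterial protein at the tunnel exit, was at 1.68, 1.54 and 2.54 in brown adipocytes and -0.05, 0.43 and 0.44 in brown SVF. Its epididymal adipocytes, at -0.27, 0.05 and -0.53, overlapped the SVF at -0.16, -0.15 and 0.12, and the interaction was 1.84 (SE 0.40, limma adjusted p = 0.03119). Mrpl3, a protein near the peptidyl transferase centre, was at 4.16, 3.51 and 4.21 against 2.83, 3.16 and 2.95 in brown fat, where it rose by 0.98 (limma adjusted p = 0.01143). In epididymal fat its adipocytes, at 2.43, 2.51 and 2.50, lay below the SVF at 3.07, 3.06 and 3.05. The difference of -0.58 did not pass (limma adjusted p = 0.1021). Mrpl3 did pass as lower there with quantile normalization (-0.64, limma adjusted p = 0.04711) and array median scaling (-1.08, limma adjusted p = 0.01322). The deposited matrix also put it lower (-0.65, limma adjusted p = 0.02722). Its interaction was 1.57 (SE 0.36, limma adjusted p = 0.03699). The call held under 22 of 25 alternatives for Mrps36, 13 of 25 for Mrpl47 and 11 of 25 for Mrpl3.

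**Figure D3:**
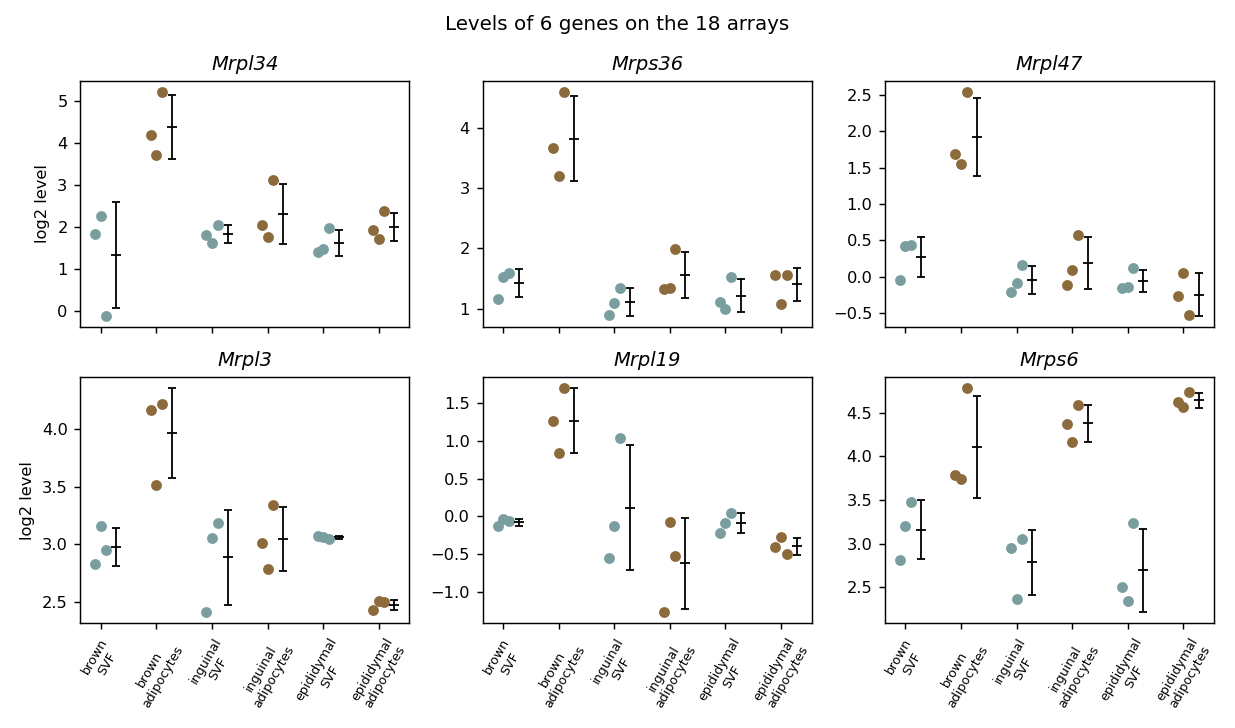
Level of 6 members on every array (points; log2 signal relative to the array's 75th percentile) in the 6 groups, with black bars for the mean and SD of the 3 arrays. The brown adipocyte arrays of Mrps36 (from 3.21) and Mrpl47 (from 1.54) lie above all their other arrays, whereas Mrps6 lies above SVF in the adipocytes of all 3 depots.

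The members that passed between brown and white adipocytes were all higher in brown. Against inguinal adipocytes 28 of 75 were higher (20 large, 8 small) and none lower, with 12.1% of all genes passing in either direction and 6.33% higher. Against epididymal adipocytes 52 were higher (34 large, 18 small) and none lower, with 28.8% and 12.3% of all genes. Median differences were 0.85 and 0.97, against 0.15 and -0.009 over all genes. Every brown array lay above every white one for 34 members against inguinal (18.4% of all genes) and 64 against epididymal adipocytes (25.8%). Left without single arrays the count against inguinal adipocytes was 11 or 10 (brown replicate 1 or 3) and 9, 12 or 47 (inguinal replicate 1, 2 or 3). Against epididymal adipocytes it was 31 without brown replicate 3, and with normexp background correction the counts were 11 and 23.

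Both comparisons called 27 members, 20 of the large and 7 of the small subunit. They share the brown arrays, and the share of all genes called in both was not counted. Mrps36 led, 2.26 above inguinal adipocytes (1.32, 1.35 and 2.00; SE 0.32, limma adjusted p = 0.001162) and 2.42 above epididymal adipocytes (SE 0.32, limma adjusted p = 0.0002378). Mrpl34 was 2.07 above inguinal adipocytes (2.04, 1.76 and 3.11; limma adjusted p = 0.02201) and 2.37 above epididymal adipocytes (1.92, 1.71 and 2.38; limma adjusted p = 0.005507). The brown arrays of both genes lay above all white arrays.

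Mrpl47 was 1.74 above inguinal adipocytes (-0.11, 0.09 and 0.58; limma adjusted p = 0.00214) and 2.17 above epididymal adipocytes (limma adjusted p = 0.0002243). Averaging its kept probes gave 0.99 and 1.53. Mrpl21, counterpart of a bacterial large-subunit protein, was at 2.26, 1.74 and 2.82 in brown, -0.02, 0.62 and 0.53 in inguinal and 0.97, 0.70 and 0.40 in epididymal adipocytes. It was 1.90 and 1.58 higher in brown (limma adjusted p = 0.001961 and 0.00241). Mrpl19, likewise of bacterial descent, was at 1.26, 0.83 and 1.69 in brown, -1.27, -0.08 and -0.53 in inguinal and -0.41, -0.27 and -0.50 in epididymal adipocytes, and was 1.89 and 1.66 higher in brown (limma adjusted p = 0.005692 and 0.005197).

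In the small subunit Mrps35 was 1.77 above inguinal and 1.76 above epididymal adipocytes (limma adjusted p = 0.002104 and 0.0009387), with white arrays between 0.42 and 1.20 and brown arrays from 2.24. Mrps15 was 1.15 and 1.40 higher (limma adjusted p = 0.03002 and 0.00575). Mrps27, a pentatricopeptide repeat protein of the small subunit, was 0.95 and 0.94 higher (limma adjusted p = 0.03663 and 0.02076), but 0.35 above inguinal adipocytes with normexp background correction (limma adjusted p = 0.433).

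Inguinal and epididymal adipocytes were not separated. Here limma called 0 members, where 7.65% of all genes passed; 7 had an unadjusted p under 0.05, all higher in inguinal adipocytes, and groups were apart with inguinal higher for 16 (11.3% of all genes). The share of all genes at an unadjusted p under 0.05 is not given here, so the 7 have no reference. The median difference was 0.24, against -0.08 over all genes, and without inguinal adipocyte replicate 3 it was 0.02. With array median scaling, which moves the median of all genes to 0.44, 20 members were higher in inguinal adipocytes, and with normexp background correction the member median was -0.05.

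In SVF the depots did not differ past the threshold in any member. The counts at an unadjusted p under 0.05 that follow have no share of all genes beside them. For brown against inguinal SVF limma called 0 (2.27% of all genes; 4 at an unadjusted p under 0.05), for brown against epididymal SVF 0 (1.78%; 1 at an unadjusted p under 0.05) and for inguinal against epididymal SVF 0 (0.297%; 1 at an unadjusted p under 0.05). Median differences were 0.17, 0.15 and 0.02, and single arrays moved them: without 1 array they ranged from 0.04 to 0.29, from 0.04 to 0.26 and from -0.11 to 0.12. The brown medians were 0.04 against both depots without brown SVF replicate 2, and 0.04 against inguinal SVF without inguinal SVF replicate 1. The inguinal minus epididymal median was lowest without inguinal SVF replicate 3. On the slide that holds 1 array of each SVF group the brown medians were -0.15 against inguinal and -0.04 against epididymal SVF. Every array of the first group lay above every array of the second for 9, 7 and 1 members (11.2%, 9.94% and 4.43% of all genes). Leaving out any single array of the groups compared, the counts stayed at 0. Brown markers were higher in brown SVF (6.04 to 7.46) than in inguinal (0.51 to 2.26) and epididymal SVF (0.61 to 1.59), and their part in these values was not tested.

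Mrps6 departed from the other members among adipocytes. It was at 3.79, 3.75 and 4.78 in brown adipocytes, and all 6 white adipocyte arrays lay between these. The brown minus white difference was -0.27 for inguinal (limma adjusted p = 0.6249) and -0.54 for epididymal adipocytes (limma adjusted p = 0.2163). Quantile normalization and the deposited matrix put it lower in brown than in epididymal adipocytes, at -0.88 and -0.92 (limma adjusted p = 0.02068 and 0.01194). In brown fat itself it rose by 0.94 over SVF (limma adjusted p = 0.04848), from 2.81, 3.20 and 3.48.

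By likeness over the 18 arrays Mrps6 also had the lowest Pearson r of its subunit with the median profile of the other members (0.667), and in the large subunit Mrpl19 (0.565) and Mrpl52 (0.583) had the lowest. Mrpl19 was at -0.55, -0.13 and 1.03 in inguinal SVF, which overlaps the inguinal adipocytes, with a difference of -0.74 that did not pass (limma adjusted p = 0.1941). The other small-subunit gene this rule names, Mrps25, had 1 array value left out, and its probes disagree, as described below. Outside the family, the genes whose profile was most like the members' median were Endog (r = 0.987), a mitochondrial nuclease, Ndufs3 (0.985), a subunit of complex I, Atp5c1 (0.985) and Atp5j2 (0.983), subunits of ATP synthase, Ptgr2 (0.984), a prostaglandin reductase, Immp1l (0.983), an inner membrane peptidase, Ndufaf1 (0.982), a complex I assembly factor, and Stx18 (0.982), a syntaxin of the endoplasmic reticulum, each over 18 arrays. The 18 arrays share 6 groups, and these values are a description.

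In 3 genes probes that carry the same gene name differed in opposite directions with both past the threshold. Of the probes named Mrpl38, the one used differed by 1.31 between brown and epididymal adipocytes and another by 1.47, while one designed to a cDNA clone (mm8 chr11:115954382-115954441) differed by -1.07. For Mrps2 the probe used gave 1.35, a second gave 0.08 and the one at mm8 chr2:28290670-28290729 gave -1.08. For Mrps25 the probe used rose by 1.15 between inguinal fractions, and the other, at mm8 chr6:92135787-92135846, fell by 1.23. Only kept probes were compared, and 29 members have more than 1 of these. On the array itself 42 members have 1 probe.

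Other genes that build or serve the mitochondrial ribosome were also higher in brown adipocytes than in brown SVF, though fewer of them. Of all genes 12.7% were higher. Of 7 mitoribosomal proteins with other names 6 rose (median 1.20). Of 21 assembly and rRNA modification factors 13 rose (median 0.96), among them the GTPase Mtg1 (2.01), Mterf4 (1.79), the rRNA methyltransferase Mrm3 (1.60) and Tfb1m (1.52). Of 15 translation factors 11 rose (median 1.41), with Taco1, an activator of cytochrome oxidase subunit translation, at 2.14, the elongation factor Tufm at 1.94, Lrpprc, which steadies mitochondrial messages, at 1.81 and the recycling factor Gfm2 at 1.80. Of 17 mitochondrial aminoacyl-tRNA synthetases 13 rose (median 1.15), led by Vars2 (1.71), Ears2 (1.57), Aars2 (1.55) and Rars2 (1.41). None of these lists had a gene that fell in brown fat.

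Genes for mitochondrial transcription and its nuclear regulators were split in brown fat, where 12.7% of all genes were higher in adipocytes. Of 15 measured, 5 rose in brown adipocytes: the coactivator Ppargc1b (2.88), its partner receptor Esrra (2.11), Tfb2m (1.44), Tefm (1.13) and the mitochondrial RNA polymerase Polrmt (0.99). The packaging factor Tfam was at 0.69, Nrf1 at -0.52, the GA-binding protein subunit Gabpa at 0.28 and Yy1 at -0.24, and none of these 4 passed.

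Of 79 respiratory chain and ATP synthase genes 76 rose in brown (median 2.19), 63 in inguinal (median 1.37) and 36 in epididymal fat (median 0.89). Of all genes 12.7%, 9.07% and 18% rose in the same order. In inguinal and epididymal fat the assembly factors had 4 and 1 higher, the translation factors 2 and 0 (with 1 lower in epididymal fat) and the synthetases 1 (with 1 lower) and 0. Between brown and epididymal adipocytes 14 assembly factors, 14 translation factors, 10 synthetases and 72 respiratory genes were higher in brown, where 12.3% of all genes were. The 80 cytosolic ribosomal protein genes, which serve the other ribosome of the cell, had a median brown difference of 0.28 with 3 higher, but the direction flips with the scaling, to -0.43 under quantile normalization and -0.44 in the deposited matrix. The members' brown median was positive under all of the 22 settings, from 0.98 to 1.59. Among the mitoribosomal genes, those with a bacterial counterpart (48 of 48 higher) had a median brown difference of 1.41. Those specific to mitochondria (28 of 29 higher, with Mrpl42, Mrpl57 and Mrpl58 counted here and Mrps36 in neither set) had a median of 1.24, and the difference between the sets was not tested.

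**Figure D4:**
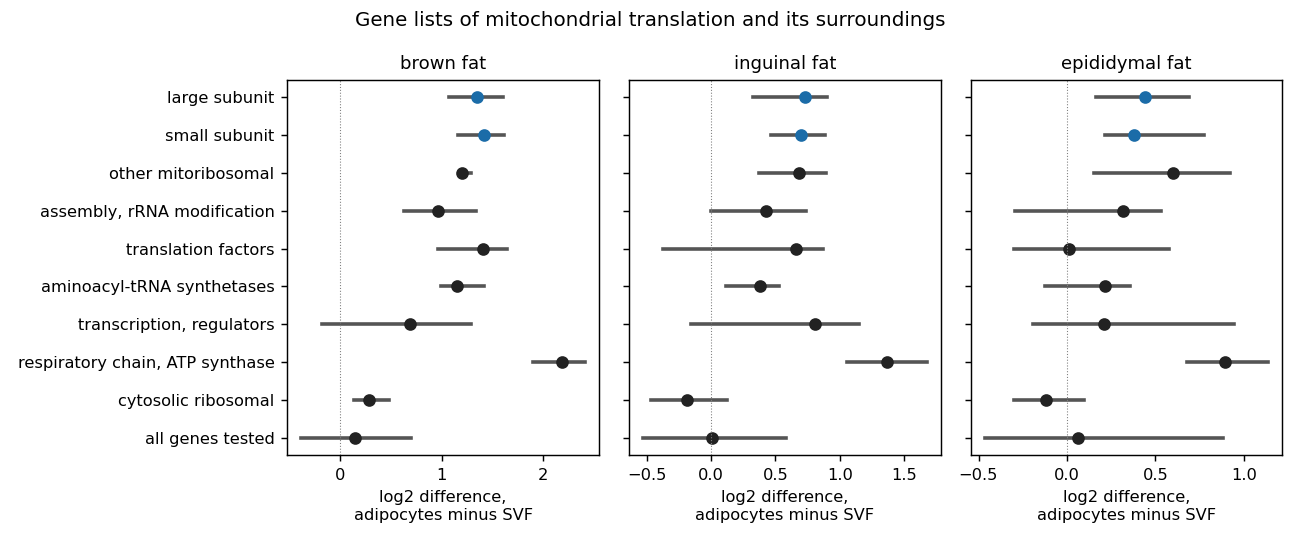
Differences between adipocytes and SVF in the 3 depots for the mitoribosomal subunits and the lists of related genes (points, median of the list; bars, lower to upper quartile; log2 scale; each depot has its own axis). In brown fat the subunit medians of 1.34 and 1.41 lie below the 2.19 of the respiratory chain and above the 0.28 of the cytosolic ribosomal proteins.

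Several members start back to back with a neighbour on the other strand. Of the 66 members with a window 20 (30.3%) had such a start within 300 bases, against 9.47% of all 27025 genes. In 1 case both are members: Mrpl46 and Mrps11, whose starts lie 42 bases apart, so the Mrps11 window printed above also covers the start of Mrpl46. In brown fat Mrps11 was at 0.42, 0.23 and 0.76 in adipocytes and -0.48, -0.50 and -0.33 in SVF (0.91, limma adjusted p = 0.0489), and Mrpl46 at 1.63, 1.19 and 1.80 against 0.43, 0.51 and 0.19 (1.16, limma adjusted p = 0.01981). Both rose, and in both the fractions were apart.

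Of 15 neighbours that are not members and were measured, 6 rose in brown adipocytes, 0 fell and 9 did not pass, with a median of 0.53. Over all genes 12.7% rose. Mrpl43 rose by 0.80 (limma adjusted p = 0.04365), from 3.50, 3.45 and 3.65 to 4.07, 4.14 and 4.81. Its neighbour Twnk, the mitochondrial DNA helicase, starts 116 bases away and rose by 1.45 (SE 0.30, limma adjusted p = 0.003424). Mrps12, the counterpart of the bacterial decoding-site protein S12, was at 3.36, 2.83 and 4.03 against 1.90, 2.15 and 2.28 and rose by 1.30 (limma adjusted p = 0.007267). The mitochondrial seryl-tRNA synthetase Sars2, which starts 147 bases from Mrps12, was at 0.93 and did not pass (limma adjusted p = 0.1195). The others that rose were Cyb5rl beside Mrpl37 (1.41), Ptcd2 beside Mrps27 (1.16), Tmem63b beside Mrpl14 (0.97), the chaperonin subunit Tcp1 beside Mrpl18 (0.77) and the proteasome subunit Psma2 beside Mrpl32 (0.63). Mitd1 beside Mrpl30 and the histone chaperone Hira beside Mrpl40 were at -0.36 and -0.43, while those 2 members rose by 1.76 and 1.16.

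With the ETS string the median brown difference was 1.27 (24 genes) and without it 1.37 (42 genes), with the YY1 string 1.30 and 1.39 (11 and 55 genes), and with the NRF1 core 1.17 and 1.36 (8 and 58 genes). For the CCAAT string of NFY the order was the other way, 1.38 with (26 genes) and 1.28 without (40 genes). Between brown and epididymal adipocytes the median of the 3 genes with the NRF1 palindrome was 1.39 and that of the other 63 genes 0.96. In the brown fraction difference the order was the other way, 1.07 with the palindrome and 1.35 without. With the NRF1 core the brown minus epididymal medians were 0.94 with and 0.99 without. None of these differences was tested.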

How the data were processed

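One-colour Agilent arrays measured RNA of adipocytes and SVF from 3 depots, in 6 groups of 3. The authors used Agilent Feature Extraction on the scans, version 10.5.1.1 for 12 arrays and 9.5.3.1 for 6 (per the file headers), and the deposited processed signal is an intensity with background removed. The deposited series matrix holds log2 values of 31161 probes that are not controls. Its normalization is not given in the sources used here, its column medians lie between 8.12 and 8.13, and 18 of 18 columns rank-correlate best with an array of their own group but only 4 with the array of their own number. It was used as an alternative.

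The members and gene lists were chosen with earlier results of these data known. Controls and outlier-marked spots were dropped, replicate spots averaged, and log2 signal minus the log2 of the array's 75th percentile over spots was taken. A first computation took the percentile over probes and called 70 members in brown fat where the reported one calls 75. A probe was kept if some group had it well above background on its 3 arrays (28603 of 41174), and the brightest kept probe stands for each of 19222 genes. The 75 members have 125 probes, of which 118 were kept. The value of Mrps25 on inguinal SVF replicate 2 was missing as an outlier, and its fit uses 17 arrays. The 75th percentile of signal ran from 338 to 1257 over the arrays, and their number limits the precision.

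limma 3.58.1 in R 4.3.3 fitted 6 group means on 18 arrays (lmFit and eBayes, two-sided), with 9 differences and 3 interactions, Benjamini-Hochberg adjustment over all genes and a threshold of 0.05. The fit was tested on simulated data of the brown comparison with 200 changed genes among 19222. Those with a log2 change of 1 were recovered in 6%, of 2 in 54%, of 3 in 84% and of 4 in 92% of cases. In the data 4051 genes passed in this comparison, so the adjustment is stricter in the simulation. Its shares do not give the recovery in the data. Named with values were, per subunit, up to 4 called members with the largest fraction difference and no overlap, up to 4 called in brown against both white adipocyte groups, up to 3 per interaction, the 2 least like the other members, the Mrps18 paralogs, members with opposed probes and the 8 most alike other genes; Mrpl43, Mrpl46, Mrps11 and Mrps12 and the neighbours were chosen for their promoters. Promoter sequences are RefSeq's, build GRCm38.p6, and probe positions are the array files' own (mm8). Where a replicate number is shared, deviations from the group means correlated at 0.42, 0.48 and 0.14 between the epididymal fractions. They correlated at -0.12, -0.05 and 0.39 between the brown and at -0.14, 0.05 and -0.23 between the inguinal fractions. The labels tie the numbers to no animal. Alternatives covered the replicate block, background correction, scaling, filters, probe choice, slides, scan days and single arrays.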

Additional observations from a re-analysis of the deposited data

Results flagged for a closer look

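For 3 members the difference between adipocytes and SVF itself differed between depots by a test of that difference. The brown difference exceeded the epididymal one by 2.21 for Mrps36 (limma adjusted p = 0.02296), by 1.84 for Mrpl47 (limma adjusted p = 0.03119) and by 1.57 for Mrpl3 (limma adjusted p = 0.03699), each on the log2 scale. Mrps36 lost the call with normexp background correction (limma adjusted p = 0.2171) and without brown SVF replicate 1 (0.06825) or epididymal SVF replicate 3 (0.05987). Of the 4 groups in these values the epididymal adipocytes alone have the older software version, and their slides and scan days hold none of the others. These and depot cannot be told apart.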

How the results depend on the processing

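The brown fraction count of 75 fell to 41 with normexp background correction and to 25 within the scan day that holds 8 arrays, where fewer arrays are compared, and ranged from 51 to 74 without single arrays. The inguinal count of 20 was 1 with normexp, 12 with no filter on dim probes, 0 with the arrays compared alone, and 5 to 26 without single arrays. The epididymal count of 11 was 1 with normexp, 18 with quantile normalization, 3 with array median scaling and 23 in the deposited matrix. With quantile normalization, array median scaling and the deposited matrix the count includes Mrpl3 as lower, and with array median scaling Mrpl43 too. The epididymal count was 18 with the arrays compared alone, 6 with scan day as a random block, and 1 to 10 without single arrays. With inguinal SVF replicate 1 left out together with replicate 3 of the epididymal adipocytes, the inguinal and epididymal counts were 8 and 5. Brown against inguinal adipocytes (28) gave 11 with normexp, 6 with the arrays compared alone and 9 to 47 without single arrays. Brown against epididymal adipocytes (52) gave 23 with normexp and 31 to 60 without single arrays. Inguinal against epididymal adipocytes (0) gave 2 with the replicate block, 20 with array median scaling and 0 without any single array. The SVF counts were 0 throughout the single-array runs. The brown minus inguinal interaction (0) gave 1 with the replicate block, quantile normalization, the deposited matrix, probes well above background on all 18 arrays, the mean of kept probes, a random block for slide or for scan day, and without the 2 arrays named above, and 0 to 2 without single arrays. The brown minus epididymal interaction (3) gave 8 with the replicate block, 0 with normexp, 30 with array median scaling, 6 in the deposited matrix (1 of them, Mrps6, lower), 1 with no filter, 5 with probes well above background on all 18 arrays, 1 with the mean of kept probes, 11 with the arrays compared alone, 5 with scan day as a random block and 0 to 7 without single arrays. The inguinal minus epididymal interaction gave 0 without any single array. The share of all genes called under each alternative is not given here. In these counts a change of the members and a change of all genes cannot be told apart. The causes were not tested.

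With the pairing of epididymal fractions by replicate number as a block 14 members were called in place of 11. Between the brown fractions the deviations correlated in replicate 3 alone (0.39), and between the inguinal fractions the highest value was 0.05. Of 859 values of named members under alternatives, 722 stayed on the same side of the threshold, 137 lost the call and 0 reversed. The percentile over probes, normexp on the median signal and the shift against all genes were added after seeing the data. Precision is limited by the 3 arrays a group. Signal was well above background for all members on all arrays, apart from 1 value of Mrps25.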
